A study of Mus musculus with 30 samples.

Results

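Genes associated with the epithelium that closes gut wounds were followed through injured colon and uninjured colon and ileum: Plet1, Mfsd2a, Wfdc18, Trim15, Sprr2h, Sprr2a3, Sprr1a, Clu and Anxa1, which are 9 of the 24746 gene symbols counted. They were chosen by symbol, with results on these libraries known, so their levels in colon injured with dextran sulfate sodium (DSS) are given as a description, and the counts of calls there support nothing. All 9 symbols were present in all 30 libraries' tables. The mice were C3H/HeOuJ, and RNA of the whole tissue was read as 3′ tags next to the poly(A) tail. Distal colon was taken at 10 weeks of age from specific-pathogen-free mice (SPF) and from formerly germ-free mice that received the SPF microbiota in week 5 (COL). Both kinds were left untreated or drank 1.5% DSS, a polymer toxic to colonic epithelium, for 4 days and then water for 2 days. Terminal ileum was taken without DSS at 6 and 10 weeks from SPF, COL and germ-free (GF) mice. Each of the 10 groups held 3 libraries, and the labels do not say whether each was a different mouse; a p-value below therefore speaks of the scatter among libraries, part of which may be technical.

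When DSS strips the colonic surface, neighbouring epithelial cells flatten, migrate over the gap and lay down a temporary sheet known as wound-associated epithelium, before crypts regrow. Such cells turn on genes otherwise used in skin, placenta or fetal gut. Plet1 encodes a surface glycoprotein first known from placenta and described in migrating colonic epithelium. Sprr1a, Sprr2a3 and Sprr2h encode small proline-rich proteins, which are cross-linked into the cornified envelope of skin and are also made by stressed gut epithelium. Wfdc18 encodes a small secreted protein of the whey acidic protein family. Mfsd2a encodes a transporter of lysophospholipids that carry long-chain fatty acids. Trim15 belongs to the tripartite motif proteins and is encoded in the MHC region. Anxa1 encodes annexin A1, a phospholipid-binding protein that limits inflammation and aids epithelial closure. Clu encodes clusterin, a secreted chaperone used as a mark of revival stem cells in damaged gut, and also made by follicular dendritic cells of lymphoid follicles.

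The genes lie on 7 chromosomes in GRCm38 (mm10), by GENCODE vM21, and all are protein-coding. The Sprr genes sit together on chromosome 3, with Sprr2a3 at 92285417 to 92291405, Sprr2h at 92385685 to 92387324 and Sprr1a at 92483952 to 92485895. Plet1 lies on chromosome 9 (50494525 to 50505482), Mfsd2a on chromosome 4 (122946850 to 122961188) and Wfdc18 on chromosome 11 (83709015 to 83711348). Trim15 lies on chromosome 17 (36860691 to 36867210), Clu on chromosome 14 (65968483 to 65981547) and Anxa1 on chromosome 19 (20373428 to 20390944). The 6 genes with the largest log2 differences after DSS in SPF colon were taken for display. Each stood higher in every DSS library than in every untreated colon library. Nothing is read from that, since they were picked by this difference and the share of all genes doing so was not counted. The 250 bases before the RefSeq start of each gene are shown, on GRCm38.p6. For Sprr1a and Wfdc18 this start differs from the GENCODE position above, and the Sprr1a window reaches into the GENCODE gene. The windows are written 5′ to 3′ on the gene's strand, with matches to the 5 motifs named below in capitals.
Plet1, chr9:50494275-50494524, plus strand: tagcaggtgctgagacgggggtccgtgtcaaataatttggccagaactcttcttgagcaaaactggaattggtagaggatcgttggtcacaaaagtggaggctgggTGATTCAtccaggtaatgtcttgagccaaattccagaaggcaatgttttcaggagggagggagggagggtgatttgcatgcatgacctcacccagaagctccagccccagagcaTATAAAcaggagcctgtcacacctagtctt
Sprr2h, chr3:92385435-92385684, plus strand: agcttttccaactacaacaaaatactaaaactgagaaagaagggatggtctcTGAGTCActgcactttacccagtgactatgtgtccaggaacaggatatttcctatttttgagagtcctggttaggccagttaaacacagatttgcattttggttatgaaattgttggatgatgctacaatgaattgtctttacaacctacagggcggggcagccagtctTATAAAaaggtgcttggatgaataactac
Sprr1a, chr3:92485882-92486131, minus strand: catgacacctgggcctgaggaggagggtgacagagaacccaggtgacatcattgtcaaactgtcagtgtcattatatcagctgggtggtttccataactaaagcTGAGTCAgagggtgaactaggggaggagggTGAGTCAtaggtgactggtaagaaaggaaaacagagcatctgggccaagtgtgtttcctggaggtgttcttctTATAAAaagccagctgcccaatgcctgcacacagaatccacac
Wfdc18, chr11:83708754-83709003, plus strand: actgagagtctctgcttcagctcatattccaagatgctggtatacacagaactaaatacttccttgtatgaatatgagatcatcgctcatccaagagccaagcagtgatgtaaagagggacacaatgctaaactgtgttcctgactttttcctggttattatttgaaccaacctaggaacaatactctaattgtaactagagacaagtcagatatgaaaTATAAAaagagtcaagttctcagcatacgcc
Mfsd2a, chr4:122961189-122961438, minus strand: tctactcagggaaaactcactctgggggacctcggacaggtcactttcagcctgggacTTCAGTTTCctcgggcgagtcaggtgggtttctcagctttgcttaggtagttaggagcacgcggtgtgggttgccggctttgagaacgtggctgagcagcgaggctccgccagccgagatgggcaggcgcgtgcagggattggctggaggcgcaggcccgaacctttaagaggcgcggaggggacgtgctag
Trim15, chr17:36867211-36867460, minus strand: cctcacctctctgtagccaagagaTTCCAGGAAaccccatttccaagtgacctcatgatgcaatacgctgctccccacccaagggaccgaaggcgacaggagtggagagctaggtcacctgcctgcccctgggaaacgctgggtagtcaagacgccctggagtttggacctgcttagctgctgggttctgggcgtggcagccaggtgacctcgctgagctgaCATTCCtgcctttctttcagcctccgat

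The windows of 250 bases before the start were searched on both strands for 5 motifs. These were a TATA box (TATAAA), the AP-1 motif (TGANTCA), the STAT motif (TTCNNNGAA), the interferon response core (GAAANNGAA) and the TEAD motif (GGAATG). RefSeq windows were found for 8 of the 9 genes. The TATA box was present in 5 of 8 (Plet1, Sprr2h, Sprr1a, Wfdc18 and Anxa1), against 12.4% of 32851 windows of all genes, and lay 24 to 43 bases before the RefSeq start. The AP-1 motif was present in 3 of 8 (Plet1 once, Sprr2h once and Sprr1a at 2 places), against 6.75%. The STAT motif was present in Sprr2a3 and Trim15 (7.02% of all windows), the interferon core in Sprr2a3 and Mfsd2a (7.13%) and the TEAD motif in Trim15 and Anxa1 (12.6%). These are matches of letters in the windows and no measure of binding. The Sprr2h window was most like that of its neighbour Sprr2k among the Sprr genes (80.6% identity), and was 50.2% identical to that of Sprr2a3.

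Levels are CPM, counts scaled to the reads assigned to genes in a library. Reads assigned per library numbered 3830539 to 6791455 in colon and 2233837 to 9088573 in ileum. A fold change is given on the log2 scale ± standard error, adjusted p-values come from the quasi-likelihood test of edgeR, corrected by Benjamini-Hochberg over all genes tested, and a gene is called changed below 0.05. Epithelial markers were abundant in sum throughout. The summed level of 11 pan-epithelial genes was 6625 to 11549.5 CPM over the colon libraries and 8291 to 11401 CPM over the ileum libraries. Lgals4, 1 of the 11, was at most 4.55 CPM in any library. The summed level of 10 smooth muscle genes was 1088 to 4292 CPM after DSS against 5485 to 6840 CPM in untreated colon. The summed level of 10 neutrophil genes was 1281 CPM in 1 SPF DSS library (replicate 3), 88.9 CPM in another (replicate 2), and at most 37.3 CPM in the other 28 libraries. The part of these differences in the results below was not tested. In whole tissue, more cells of a type and more RNA per cell cannot be told apart.

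Plet1, the surface glycoprotein, was low in untreated and high in DSS colon. In untreated colon its level was 2.35, 0.446 and 7.59 CPM in the 3 SPF libraries and 4.98, 3.67 and 2.31 CPM in the 3 COL libraries. After DSS it was 74.5, 644 and 851 CPM in SPF colon and 174, 199.8 and 99.8 CPM in COL colon. Every DSS library lay above every untreated one in both kinds of mice, and SPF DSS replicate 1 lay far below the other SPF DSS libraries and below all COL DSS libraries. The difference was 7.24 ± 1.03 in SPF and 5.47 ± 0.95 in COL colon.

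Mfsd2a and Wfdc18 were near the limit of detection in untreated colon. Mfsd2a was counted 3 times in all in the untreated SPF libraries and 7 times in the untreated COL libraries. After DSS it stood at 25.8, 42.3 and 59.3 CPM in SPF colon and 32.4, 23.6 and 34.4 CPM in COL colon. The ratio of pooled counts was 183 in SPF (95% interval 62.3 to 889) and 72.5 in COL (34.9 to 181), intervals that cover counting error only. Wfdc18 was 1.57, 0.223 and 0.389 CPM in untreated SPF colon and 19.5, 22.2 and 51.7 CPM after DSS. In COL colon it was 0.166, 0.55 and 0.771 CPM untreated and 20.03, 23.0 and 14.6 CPM after DSS. Neither gene's DSS libraries overlapped its untreated libraries, and the highest level of both was in SPF DSS replicate 3, the library rich in neutrophil reads. The log2 differences for Wfdc18 were 5.52 ± 0.58 in SPF and 5.31 ± 0.59 in COL colon.

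Trim15 was low in untreated SPF colon, at 4.18, 2.23 and 2.53 CPM, and stood at 40.2, 45.9 and 49.3 CPM after DSS. In COL colon it was 4.98, 10.3 and 11.8 CPM untreated and 22.4, 23.4 and 26.4 CPM after DSS. The groups did not overlap in either kind of mouse, and the DSS libraries of a group lay close together. The log2 difference was 4.00 ± 0.36 in SPF and 1.5 ± 0.31 in COL colon.

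Among the Sprr genes, Sprr2a3 was already high in untreated colon, at 401, 501 and 254 CPM in SPF and 258, 369 and 341 CPM in COL libraries. After DSS it was 949, 780.3 and 673 CPM in SPF and 581, 713 and 1497 CPM in COL colon, a log2 difference of 1.13 ± 0.35 and 1.63 ± 0.36. The fold was small, and no DSS library fell within the untreated range. Sprr1a stood at 10.2, 7.14 and 21.2 CPM without and at 43.5, 72.8 and 60.2 CPM with DSS in SPF colon. In COL colon it was 8.97, 7.71 and 7.71 CPM untreated and 23.0, 78.1 and 132 CPM after DSS. Its log2 difference was 2.25 ± 0.54 in SPF and 3.36 ± 0.56 in COL colon, with a wide spread among the COL DSS libraries. Sprr2h was at most 0.584 CPM in every untreated colon library. After DSS it was 8.88, 15.2 and 175 CPM in SPF and 5.45, 4.64 and 9.69 CPM in COL colon, so that 1 library, SPF DSS replicate 3, held most of the SPF reads. Its log2 difference was 7.44 ± 1.35 in SPF and 5.59 ± 1.64 in COL colon.

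Anxa1 was 89.3, 182 and 65.6 CPM in untreated SPF colon and 224, 219 and 227 CPM after DSS. In COL colon it was 76.1, 112 and 92.7 CPM untreated and 127, 155 and 240.2 CPM after DSS. The ranges did not overlap in either kind of mouse, and the log2 difference was 1.06 ± 0.33 and 0.98 ± 0.33, the smallest among the genes that were higher after DSS. Clu went against the label. It was 56.6, 55.1 and 23.2 CPM in untreated SPF colon and 30.5, 21 and 15.1 CPM after DSS (-0.94 ± 0.45), with overlapping ranges. In COL colon it was 93.9, 44.2 and 33.7 CPM untreated and 31.4, 11.4 and 17.9 CPM after DSS (-1.42 ± 0.45), every DSS library lying below every untreated one. Clu was thus not higher after DSS in these libraries, while the other 8 genes were.

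**Figure D1:**
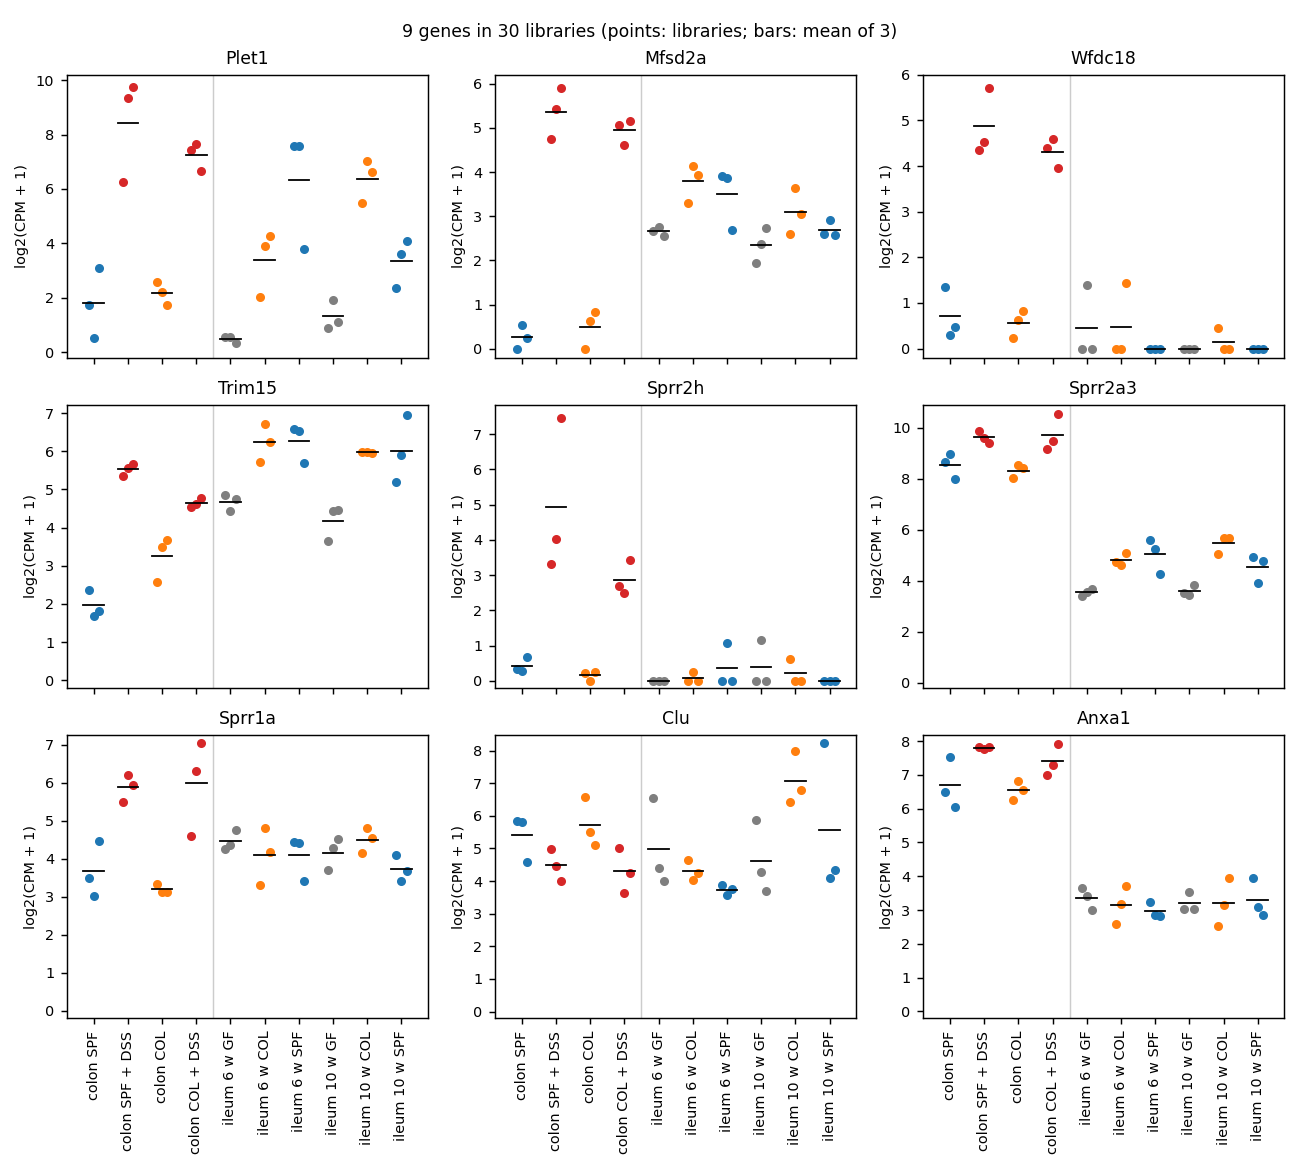
Level of each of the 9 genes, as log2(CPM + 1), in 30 libraries over the 10 groups, with points for libraries, short bars for the mean of 3 and red for DSS colon. Clu is the panel in which the DSS libraries do not stand above untreated colon, and the means of Plet1, Trim15, Sprr2a3 and Mfsd2a are lowest in GF among the ileum groups of each age. The share of all genes with that ileum pattern was not counted.

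By the test across all genes, 8 of the 9 genes were called higher and 0 lower after DSS in SPF colon, where 12.2% of 12855 tested genes were called higher and 11.9% lower. In COL colon 6 were called higher and 0 lower, where 4.14% of tested genes were called higher and 3% lower; Sprr2h, Anxa1 and Clu were not called there by edgeR, and DESeq2 called all 9, Clu as lower (adjusted p = 0.0223). The genes were chosen with this response known, so nothing is read from these counts. The median log2 difference of the 9 was 4.00 in SPF and 3.36 in COL colon, against -0.03 and 0.01 over all genes tested.

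**Figure D2:**
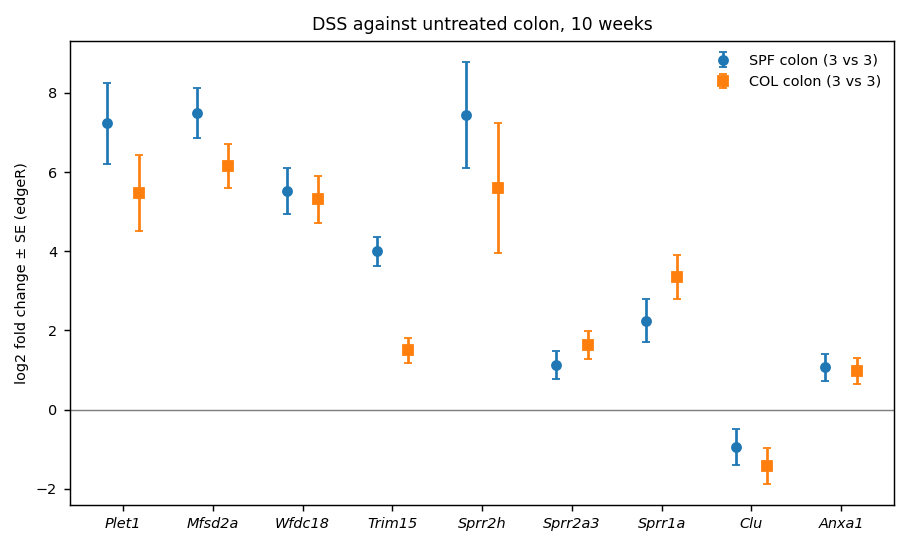
Log2 fold change of DSS against untreated colon with its standard error (edgeR, 3 against 3 libraries) for the 9 genes, circles for SPF and squares for COL mice. Mfsd2a, Sprr2h and Plet1 lie highest, between 5.47 and 7.49, and Clu lies below 0 in both kinds of mice.

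The remaining Sprr genes of the cluster were mostly silent. Of 15 Sprr genes counted, 5 passed the filter on low counts in colon. Besides the 3 described, Sprr2k was called higher after DSS in SPF colon. It had 0 counts in all 6 untreated libraries and 1.74, 5.31 and 46.3 CPM in SPF DSS colon, at least 68.8-fold higher over the group (against a floor of 3 counts for the untreated group). In COL DSS colon Sprr2k was 3.09, 1.06 and 3.71 CPM, at least 14.9-fold higher than in untreated COL colon, and was not called (adjusted p = 0.153 by edgeR). Sprr2b, tested as well, was called in neither (0.74 ± 0.38 and 0.41 ± 0.38). Sprr2d and Sprr2f, named after their values were seen, appeared at 15.3 and 6.37 CPM in SPF DSS replicate 3 and at no more than 1.03 CPM in any other colon library. That library also had the highest Sprr2h and Sprr2k. Sprr2a3 made up 64.9% of all Sprr counts there and 86.3 to 94.4% in the other 11 colon libraries. Reads that match several places were not counted: 80.1% of the 50-base stretches in the last 300 bases of Sprr2a3 also occur in transcripts of other genes, Sprr2a1 and Sprr2a2 among them, and both of these were counted at 0 in all 12 colon libraries. The level of Sprr2a3 is therefore uncertain as that of a single gene.

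**Figure D3:**
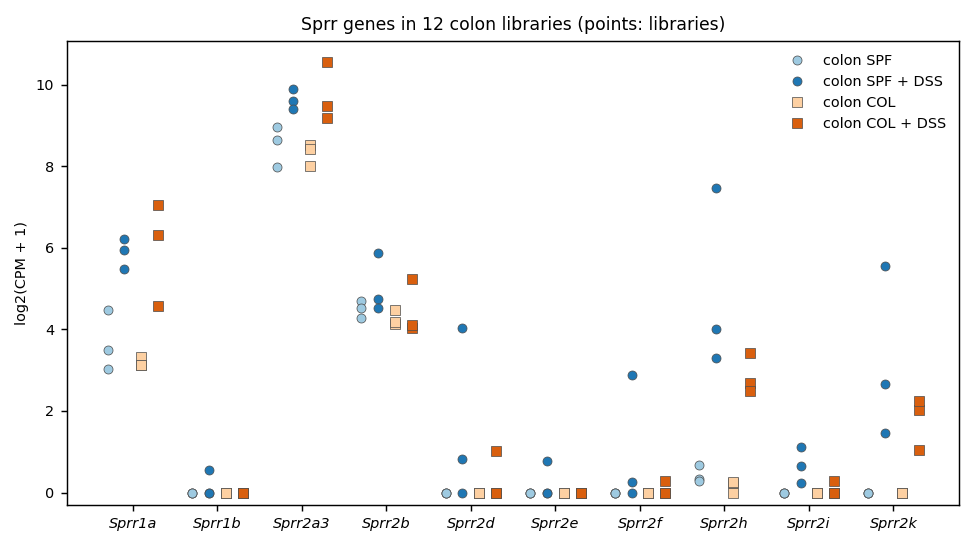
Level of 10 Sprr genes, as log2(CPM + 1), in 12 colon libraries, with pale symbols for untreated and dark symbols for DSS libraries of SPF (circles) and COL (squares) mice. Sprr2h and Sprr2k leave the baseline in all 6 DSS libraries, and Sprr2d and Sprr2f stand out in 1 SPF library.

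Relatives of the other genes differed in direction. Among the 5 other whey acidic protein genes tested, Wfdc12 rose in SPF (7.24 ± 1.37, from 0 counts to 2.28 to 4.72 CPM) and in COL colon (5.39 ± 1.46, to 0.211 to 1.77 CPM). These folds are against 0 counts, and against a floor of 3 counts Wfdc12 was at least 15.6-fold higher in SPF and at least 5.76-fold higher in COL colon. Wfdc17, an inhibitor-like gene of activated macrophages, rose in SPF (2.32 ± 0.50) and was not called in COL colon (1.51 ± 0.48), and Wfdc2 fell in SPF (-1.17 ± 0.34) and was not called in COL colon (-0.93 ± 0.34). Among the 8 other annexins tested, Anxa6 fell in SPF (-1.47 ± 0.30) and Anxa4 rose in COL colon (0.85 ± 0.22). Among the 5 other tripartite motif genes of the MHC region that were tested, Trim40 rose in both (1.47 ± 0.29 in SPF and 1.74 ± 0.29 in COL). Trim31 rose in SPF (0.93 ± 0.31) and Trim27 in COL colon (1.18 ± 0.28).

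Other genes of regenerating epithelium were set beside these 9. Of 31 tested, 7 rose and 1 fell in SPF colon, where 12.2% of all genes tested rose and 11.9% fell, and 5 rose and 1 fell in COL colon, where 4.14% and 3% did. Ly6a, which encodes the surface antigen Sca-1 used to sort fetal-like repairing epithelium and is also carried by stromal and blood cells, rose the most among the 4 with the smallest p. It went from 55.3, 222 and 236 CPM to 4469.8, 5114 and 6776 CPM in SPF colon (5.07 ± 0.45) and from 169, 112 and 177 CPM to 3337, 4027 and 3831 CPM in COL colon (4.70 ± 0.44). Tnip3, which encodes an inhibitor of NF-κB signalling, rose by 1.68 ± 0.24 and 2.30 ± 0.25, and S100a11, a calcium-binding protein, by 1.12 ± 0.27 and 1.27 ± 0.28. The tight junction gene Cldn4 fell by 1.31 ± 0.26 and 1.53 ± 0.26. The median over the 31 genes was 0.49 in SPF and 0.29 in COL colon, against -0.03 and 0.01 over all genes tested.

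Targets of YAP, the transcriptional partner of TEAD factors held to drive this repair state, were counted in the same way. Of 21 tested, 1 rose and 8 fell in SPF colon and 0 rose and 5 fell in COL colon, beside the same shares of all genes (12.2% and 11.9% in SPF, 4.14% and 3% in COL). Igfbp3 (-2.44 ± 0.39 and -1.75 ± 0.37), Crim1 (-2.06 ± 0.44 and -2.17 ± 0.43), Tgfb2 (-1.65 ± 0.33 and -1.23 ± 0.32) and Ptpn14 (-1.27 ± 0.29 and -1.08 ± 0.28) fell in both. Ctgf, a matrix-associated growth factor used as a YAP readout, fell in SPF (-1.72 ± 0.42) and was -1.32 ± 0.41 in COL colon without a call. Several of these are also genes of stroma and muscle: of 10 smooth muscle genes 8 fell in SPF and 2 in COL colon, and of 10 fibroblast genes 7 and 3 fell. The part of that in the YAP list was not tested.

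Squamous epithelium, which carries Sprr genes at the anal border, was checked by its markers. Of 23 such genes in the files, 8 passed the filter. Krt5, the keratin of basal squamous cells, was at most 0.778 CPM in any colon library, Trp63 had 0 counts in all 12, and Krtdap had at most 1.57 CPM. Krt14 was called lower after DSS in SPF colon (-1.63 ± 0.57, from 2.87 to 7.81 CPM down to 1.22 to 1.71 CPM), and Krt13 was called higher in COL colon (3.73 ± 0.93). The summed level of the 23 genes, nearly all of it from Dsp, a desmosome gene of all epithelia, was 778 to 1450 CPM in DSS and 682 to 981 CPM in untreated colon. The part of squamous cells in the Sprr levels was not tested.

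Between COL and SPF mice edgeR called 0 of the 9 genes in DSS colon, where 0.00778% of 12855 genes (1 gene) were called, and 0 in untreated colon, where 0% were. At an unadjusted p under 0.05 stood 3 (Plet1, Trim15 and Sprr2h) in DSS colon, against 8.01% of all genes tested, and 1 (Trim15) in untreated colon, against 7.69%, and DESeq2 called 0 and 1 (Trim15, adjusted p = 0.0397). For Trim15 the groups did not overlap in either state, in opposite directions, a pattern whose share over all genes was not counted. In untreated colon the COL libraries (4.98 to 11.8 CPM) lay above the SPF libraries (2.23 to 4.18 CPM), by 1.58 ± 0.36 (adjusted p = 0.325 by edgeR). After DSS the COL libraries (22.4 to 26.4 CPM) lay below the SPF libraries (40.2 to 49.3 CPM), at -0.92 ± 0.30 (adjusted p = 0.527). The test of the difference between the 2 DSS responses gave -2.50 ± 0.47 with an adjusted p of 0.371 by edgeR, and -2.51 with an adjusted p of 0.00451 by DESeq2. In this test edgeR called 0 of the 9 genes and 0% of the 12855, 1 gene (Trim15) had an unadjusted p under 0.05 (8.73% of all genes tested), and DESeq2 called 1, Trim15. For Sprr2h the DSS difference between COL and SPF was -3.31 ± 0.95 with overlapping ranges (4.64 to 9.69 CPM against 8.88 to 175 CPM), and the adjusted p was 0.527. Plet1 was 99.8 to 199.8 CPM in COL and 74.5 to 851 CPM in SPF DSS colon (-1.75 ± 0.76, adjusted p = 0.611). The other 6 genes differed by -0.71 to 0.41 in DSS colon, with overlapping ranges. In untreated colon Mfsd2a (7 counts in COL against 3 in SPF), Wfdc18 (8 against 9) and Sprr2h (2 against 5) had passed the filter only through the DSS libraries, and a difference was not detectable at this depth.

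The ileum was not injured. Which values chose the genes is not recorded beyond their symbols, so the tests in ileum are not known to be independent of that choice. Wfdc18 and Sprr2h were almost absent and did not pass the filter: 14 of 18 ileum libraries or more had 0 counts of each, and the highest were 1.70 and 1.25 CPM. The other 7 genes were tested. At both ages Plet1, Trim15, Sprr2a3 and Mfsd2a had a lower mean in GF than in SPF and COL ileum. The share of all genes tested with this pattern was not counted.

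Plet1 was 0.464, 0.482 and 0.272 CPM in GF ileum at 6 weeks and 192, 192 and 12.7 CPM in SPF ileum of that age (8.56 ± 1.38, adjusted p = 0.00203). COL ileum at 6 weeks, colonised in week 5, had 3.10, 13.8 and 18.2 CPM (5.10 ± 1.5 against GF, adjusted p = 0.0814). With only the 6 libraries of the groups compared, the SPF difference was not called (8.56, adjusted p = 0.0623) and the COL difference was (5.08, adjusted p = 0.00022). At 10 weeks Plet1 was 0.871, 2.81 and 1.16 CPM in GF, 44.2, 129 and 96.4 CPM in COL and 4.13, 11.2 and 16.1 CPM in SPF ileum. The difference from GF was 5.70 ± 1.14 for COL (adjusted p = 0.0073) and 2.54 ± 1.26 for SPF (adjusted p = 0.312, and 0.0495 by DESeq2). In each of the 4 comparisons with GF all 3 libraries with microbes lay above all 3 without, while the SPF and COL groups changed places between the ages. At 6 weeks SPF stood above COL with 1 SPF library inside the COL range, and at 10 weeks every COL library stood above every SPF library. The test of that change in the COL to SPF difference with age, added after the values were seen, gave 6.62 ± 1.32 with an adjusted p of 0.0939 by edgeR, and it passed in DESeq2 (adjusted p = 0.000271) and without SPF replicate 3 at 6 weeks (7.16, adjusted p = 0.0062).

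Trim15 was 28.1, 20.6 and 25.7 CPM in GF ileum at 6 weeks, 94.9, 92.2 and 50.8 CPM in SPF and 52.1, 104 and 75.1 CPM in COL ileum. At 10 weeks it was 11.5, 20.7 and 21 CPM in GF, 35.7, 58.4 and 123 CPM in SPF and 61.9, 62.3 and 60.8 CPM in COL ileum. No library with microbes fell within the GF range of its age. Trim15 rose in all 4 comparisons with GF, by 1.90 ± 0.45 (SPF, 6 weeks, adjusted p = 0.0188), 1.89 ± 0.45 (COL, 6 weeks, 0.0285), 2.07 ± 0.47 (SPF, 10 weeks, 0.0174) and 1.78 ± 0.46 (COL, 10 weeks, 0.0255). These calls were near the threshold, and leaving out 1 library could take them away. Each was lost without any 1 of the 3 GF libraries of its age. The calls at 6 weeks were also lost without SPF replicate 1 or 2 or COL replicate 2 or 3, and that of COL at 10 weeks without any 1 of its 3 COL libraries. Among these the adjusted p reached 0.131, without GF replicate 2 for COL at 6 weeks. The call of SPF at 10 weeks was also lost with only the 6 libraries compared (adjusted p = 0.15 by edgeR). Trim40, its neighbour in the MHC region, rose too in SPF against GF ileum at 6 weeks (1.07 ± 0.28) and in both comparisons at 10 weeks (1.35 ± 0.29 for SPF and 1.08 ± 0.29 for COL).

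Sprr2a3 was 9.51, 10.9 and 11.9 CPM in GF ileum at 6 weeks, 48.0, 37.1 and 18.1 CPM in SPF and 25.4, 23.4 and 33.2 CPM in COL ileum. At 10 weeks it was 10.4, 9.97 and 13.2 CPM in GF, 29.7, 14.2 and 26.4 CPM in SPF and 32.0, 50.9 and 50.3 CPM in COL ileum. The GF libraries lay together between 9.51 and 13.2 CPM at both ages, below every other ileum library. The gene rose by 1.89 ± 0.33 in SPF (adjusted p = 0.000541) and 1.58 ± 0.33 in COL (0.00502) at 6 weeks, and by 1.98 ± 0.33 in COL at 10 weeks (0.000338), and was 1.09 ± 0.33 in SPF at 10 weeks (0.0557, and 0.0163 without SPF replicate 2). Of all Sprr counts, Sprr2a3 took 25.7 to 32.7% in the 6 GF libraries and 37.1 to 60.4% in the other 12 ileum libraries.

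Mfsd2a was 5.34, 5.79 and 4.90 CPM in GF, 14.1, 13.6 and 5.50 CPM in SPF and 8.90, 16.7 and 14.4 CPM in COL ileum at 6 weeks. It rose by 1.28 ± 0.39 in SPF (adjusted p = 0.0416) and 1.57 ± 0.39 in COL ileum (adjusted p = 0.0177), the SPF range overlapping that of GF through replicate 3. Both calls were lost without any 1 of the 3 GF libraries, that of SPF also without SPF replicate 1 or 2 (adjusted p up to 0.21) or without the 3 libraries, replicate 1 of SPF at 10 weeks and of GF at both ages, whose follicle reads stood apart within their groups (0.086) and that of COL without COL replicate 2 or 3 (up to 0.0926). At 10 weeks the SPF and COL ranges (4.92 to 11.5 CPM in all) overlapped the GF range (2.83 to 5.63 CPM) and neither comparison was called. Sprr1a (8.90 to 27.0 CPM over the 18 libraries) and Anxa1 (4.73 to 14.5 CPM) were called in no comparison with GF, their log2 differences running from -0.45 to 0.33.

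Of the 7 genes tested, 4 were called higher in SPF than in GF ileum at 6 weeks and 1 at 10 weeks, where 4.37% and 4.22% of 13233 tested genes were. In COL against GF ileum 3 were called higher at 6 weeks and 3 at 10 weeks, where 2.78% and 5.1% were. None was called lower in these 4 comparisons. For SPF at 6, SPF at 10, COL at 6 and COL at 10 weeks, 3.33%, 1.98%, 1.86% and 4.04% of tested genes were. In that order the median over the 7 genes was 1.28, 1.09, 1.57 and 1.78, against -0.02, 0.02, -0.02 and 0.01 over all genes tested. All 4 comparisons share their GF libraries by age. Other genes of regenerating epithelium went in both directions. Of 29 tested, 2 rose and 3 fell in SPF against GF at 6 weeks, where 4.37% and 3.33% of all genes tested did. In COL at 6 weeks 2 rose and 4 fell (2.78% and 1.86% of all genes tested). At 10 weeks 3 rose and 3 fell in SPF (4.22% and 1.98%), and 4 rose and 4 fell in COL (5.1% and 4.04%). Ly6a rose in each of the 4, by 0.94 ± 0.23 to 2.31 ± 0.24, from 12 to 25.6 CPM in GF ileum to 36.6 to 101 CPM with microbes, while Tm4sf4, a membrane protein of fetal-like epithelium, and S100a6 fell in each of the 4.

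**Figure D4:**
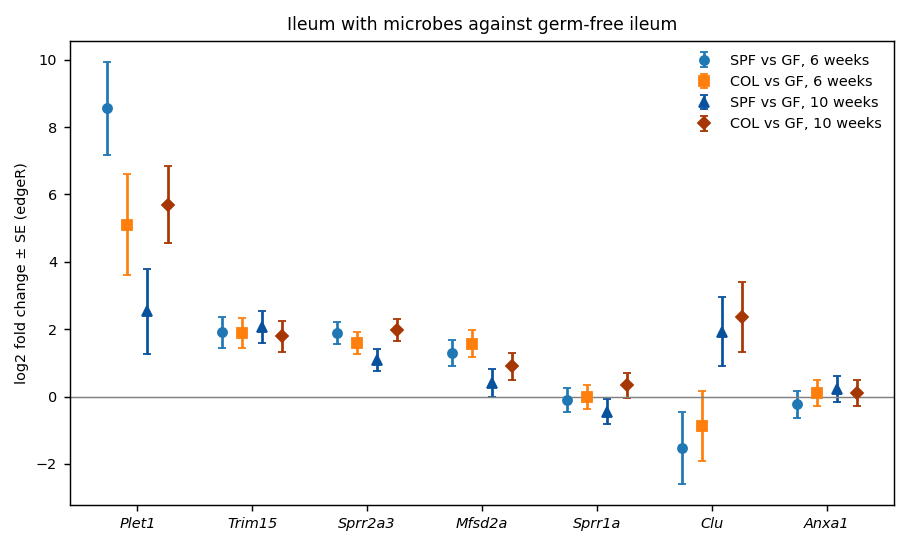
Log2 fold change against germ-free ileum with its standard error (edgeR, 3 against 3 libraries) for the 7 genes tested, by microbial status and age. Plet1, Trim15, Sprr2a3 and Mfsd2a lie above 0 in all 4 comparisons, and Sprr1a and Anxa1 lie within 0.45 of 0. The share of all genes above 0 in all 4 was not counted.

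Between COL and SPF ileum edgeR called 0 of the 7 genes at 6 weeks (0.0982% of tested genes were called) and 0 at 10 weeks (0.0907%), against 1 (Plet1) and 2 (Plet1 and Sprr2a3) at an unadjusted p under 0.05 (7.92% and 7.97% of all genes tested) and 1 (Plet1) and 0 by DESeq2. With age edgeR called 0 in SPF ileum (1.37% of tested genes were called), in COL ileum (2.53%) and in GF ileum (0.0302%), against 4, 3 and 0 at an unadjusted p under 0.05 (18.7%, 17.6% and 3.8% of all genes tested) and 2, 0 and 0 by DESeq2. The largest age difference was that of Plet1 in SPF ileum, which was 132 ± 103 CPM at 6 and 10.5 ± 6.02 CPM at 10 weeks (SD, n = 3; -3.95 ± 0.97, adjusted p = 0.0688). It became a call without SPF replicate 3 at 6 weeks (-4.50, adjusted p = 0.00784), the library with 12.7 CPM. Tests of whether the microbial differences changed with age in edgeR called 0 of the 7 for SPF against GF (0.0151% of tested genes were called), for COL against GF (0.144%) and for COL against SPF (0.166%), against 2, 1 and 2 at an unadjusted p under 0.05 (8.55%, 10.4% and 10.1% of all genes tested) and 1, 0 and 1 by DESeq2.

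Untreated colon and ileum of the same status at 10 weeks differed in these genes in both directions. In SPF mice 2 of the 9 were called higher in colon, where 15.3% of 13807 tested genes were, and 2 lower, where 17.2% were. In COL mice 2 were called higher (11.9% of tested genes) and 4 lower (14.3%). Wfdc18 and Sprr2h had passed the filter only through the DSS libraries, and a difference was not detectable at this depth. In SPF colon and ileum Wfdc18 had 9 and 0 counts and Sprr2h 5 and 0. In COL colon and ileum Wfdc18 had 8 and 2 counts and Sprr2h 2 and 3. Sprr2a3 and Anxa1 were the higher ones in both kinds of mice. Sprr2a3 was 254 to 501 CPM in SPF colon against 14.2 to 29.7 CPM in SPF ileum (3.95 ± 0.40, adjusted p = 9.46e-09), and 2.79 ± 0.37 higher in COL colon. Anxa1 was 65.6 to 182 CPM in SPF colon against 6.27 to 14.5 CPM in SPF ileum (3.43 ± 0.40, adjusted p = 1.15e-07), and 3.29 ± 0.40 higher in COL colon.

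Trim15 and Mfsd2a were lower in colon in both. Trim15 was 2.23 to 4.18 CPM in SPF colon against 35.7 to 123 CPM in SPF ileum (-4.76 ± 0.48, adjusted p = 7.91e-09) and differed by -2.86 ± 0.41 in COL mice. Mfsd2a was 0 to 0.446 CPM in SPF colon against 4.92 to 6.49 CPM in SPF ileum (-4.59 ± 0.72, adjusted p = 6.15e-06) and differed by -4.23 ± 0.59 in COL mice. In COL mice Plet1 (-4.67 ± 1.04, adjusted p = 0.00178) and Sprr1a (-1.5 ± 0.51, adjusted p = 0.0311) were lower in colon as well, the call of Sprr1a being lost without any 1 of the 3 COL colon libraries or without COL ileum replicate 2 or 3 (adjusted p up to 0.102). Trim15 in SPF DSS colon (40.2 to 49.3 CPM) lay within the range of SPF ileum at 10 weeks. Mfsd2a in DSS colon (23.6 to 59.3 CPM) lay above every ileum library (at most 16.7 CPM).

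Ordered by group mean, the levels of each gene fell into few separate steps. For Plet1 the first 4 groups, SPF DSS colon (523 ± 402 CPM), COL DSS colon (158 ± 51.9), SPF ileum at 6 weeks (132 ± 103) and COL ileum at 10 weeks (89.8 ± 42.6), each overlapped the next in range, and COL ileum at 6 weeks followed (11.7 ± 7.75; SD, n = 3 throughout), which lay below the fourth group without overlap and overlapped SPF ileum at 6 weeks. For Mfsd2a, Wfdc18 and Sprr2h a gap separated both DSS groups from all other groups. For Sprr1a the SPF DSS libraries lay above all other groups but COL DSS, whose lowest library (23.0 CPM) lay within the range of the ileum. For Trim15 the 4 ileum groups with microbes (61.6 ± 0.77 to 79.3 ± 24.7 CPM) had higher means than SPF DSS colon (45.1 ± 4.62 CPM) and overlapped their neighbours in the order, the SPF group at 10 weeks overlapping SPF DSS colon as well, and untreated SPF colon was lowest (2.98 ± 1.05 CPM). For Sprr2a3 the order was DSS colon, untreated colon, ileum with microbes and GF ileum (10.8 ± 1.18 to 11.2 ± 1.74 CPM), with a gap at each step and overlaps within each. For Anxa1 the 4 colon groups (93.8 ± 18.2 to 223 ± 4.39 CPM) lay above the 6 ileum groups (6.87 ± 1.30 to 9.44 ± 2.26 CPM), and neighbours within each tissue overlapped.

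Clu ran in another order from the rest, with its highest means in ileum at 10 weeks, at 149 ± 90.9 CPM in COL and 112 ± 164 CPM in SPF mice. Its levels were 84.6, 253 and 109.6 CPM in COL, 302, 16.0 and 19.2 CPM in SPF and 58.1, 18.5 and 11.8 CPM in GF ileum at 10 weeks. At 6 weeks they were 23.8, 15.4 and 17.9 CPM in COL, 13.9, 10.8 and 12.6 CPM in SPF and 93.0, 19.9 and 15 CPM in GF ileum. Single libraries stood apart: replicate 1 of SPF at 10 weeks and replicate 1 of GF at both ages. These 3 libraries also held more reads of follicular B cells than the others of their groups. The summed level of 10 follicular B cell genes was 723 CPM in SPF replicate 1 at 10 weeks against 5.37 and 10.8 CPM in the other 2, 66.0 against 1.25 and 3.88 CPM in GF at 10 weeks, and 96.0 against 0 and 1.23 CPM in GF at 6 weeks. COL ileum at 10 weeks had 120, 350 and 152 CPM in replicates 1, 2 and 3.

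Over the 30 libraries the correlation of log2 levels between Clu and this sum was 0.89, and it was 0.93 over the 18 ileum and 0.72 over the 12 colon libraries, as a description of libraries that share tissue, depth and age. SPF replicate 1, COL replicate 2 and COL replicate 3 of 10 weeks, all from ileum, were the 3 highest libraries, in that order, in Clu and in the B cell sum. At 10 weeks Clu differed by 2.35 ± 1.04 between COL and GF and by 0.42 ± 0.97 between COL and SPF ileum, and neither was called. All 3 COL libraries of that age carried follicle reads, so that status and follicle content cannot be told apart in these values.

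**Figure D5:**
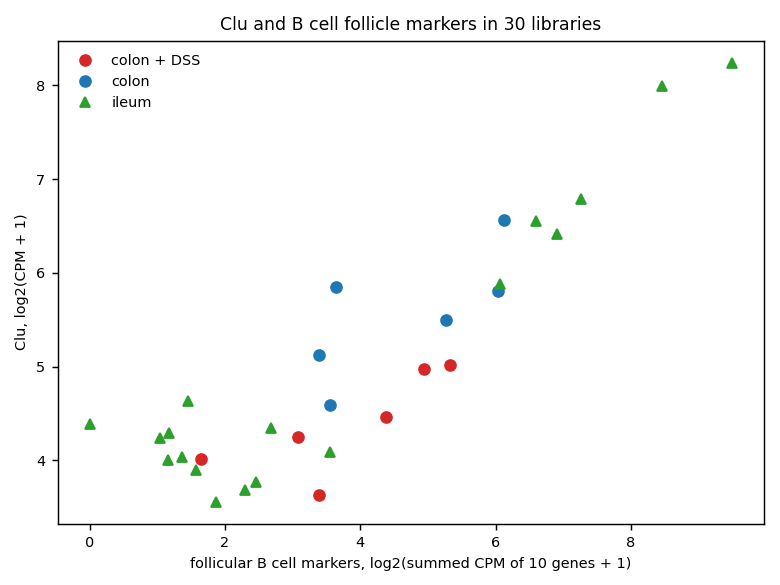
Clu, as log2(CPM + 1), against the log2 summed level of 10 follicular B cell genes in 30 libraries, triangles for ileum and circles for colon, red after DSS. The 3 libraries with the highest sums, up to 723 CPM, have the highest Clu, up to 302 CPM, and the DSS colon libraries have sums of 2.12 to 39.2 CPM and Clu of 11.4 to 31.4 CPM.

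For each gene the 3 other genes with the most similar pattern were taken from 9022 candidates by Pearson correlation of log2 CPM over the 30 libraries, which share tissue and treatment. Plet1 was most like Gsr (glutathione reductase, 0.90), Socs1 (an inhibitor of cytokine signalling, 0.90) and Lbp (a binding protein for bacterial lipopolysaccharide, 0.88). The values were 0.91 to 0.96 in colon alone and 0.79 to 0.92 in ileum alone, parts of the same 30 libraries by which the 3 genes were picked. Trim15 was most like Gda (guanine deaminase, 0.94), Slc5a9 (a sugar transporter, 0.92) and Slc35b1 (0.91), with 0.83 to 0.94 within the ileum. Mfsd2a was most like E2f2 (a cell-cycle transcription factor, 0.95), Msmo1 (a sterol synthesis enzyme, 0.93) and Rpn2 (0.93). Sprr2a3 was most like Ildr1 (a tricellular junction protein, 0.97), Nans (0.97) and Mboat1 (0.97). For Nans and Mboat1 the value was 0.48 and 0.40 within colon and 0.84 and 0.86 within ileum. Sprr1a was most like Wars (0.81), Snrpe (0.78) and Rars (0.78), Wars and Rars being tRNA synthetases, and the value for Wars within ileum was 0.13. Wfdc18 was most like Mid1ip1 (0.93), Ly6c1 (0.92) and Nab1 (0.91), and Sprr2h was most like Snx10 (0.88), Cd2ap (0.87) and Ly6a (0.87). Both genes were almost absent from ileum, where the values were 0.23 to 0.47 for Wfdc18 and 0.12 to 0.39 for Sprr2h. Anxa1 was most like Anxa3 (0.97), S100a16 (0.97) and Ildr1 (0.96), with 0.04 for Anxa3 within the ileum. Clu was most like Mfge8 (0.89), Cd83 (0.87) and Mef2c (0.83), of which Mfge8 is made by follicular dendritic cells and Cd83 and Mef2c by B cells among others.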

How the data were processed

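Each deposited file holds counts of reads per gene symbol for 1 library, 24746 symbols and 5 summary lines, which were left out of library sizes and tests. The authors named Trimmomatic 0.36, FastQC 0.11.5, STAR 2.5.3a, HTSeq and the build mm10, per the submitters' processing notes. HTSeq's version, strand setting and annotation are not given in the sources used here. RNA was extracted with Qiazol and made into QuantSeq 3′ tag libraries for Ion Torrent, per the labels' protocols. Reads aligned to several places were 30.3 to 36.9% of the reads listed for a colon and 28 to 34.3% for an ileum library, and HTSeq leaves these out, which touches Sprr2a3.

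Counts were scaled by TMM, filtered with filterByExpr and tested with edgeR 4.0.16 in R 4.3.3 (robust quasi-likelihood fit, 1 mean per group), for 12 colon libraries (12855 genes), 18 ileum libraries (13233) and all 30 (13807, for colon against ileum). A standard error is the absolute log2 fold change divided by the square root of F. There were 19 comparisons, 4 of them differences between differences, of which the change of the COL to SPF difference with age was added after the data were seen. The alternatives were DESeq2 1.42.0, its size factors within edgeR, no filter, only the groups compared, a block on the replicate number, each library left out in turn, and leaving out the 3 ileum libraries whose follicle reads stood apart within their group (added after the data were seen; COL libraries at 10 weeks, all with many such reads, were kept). On data simulated for DSS in SPF colon (12746 genes), edgeR recovered 11 of 50 genes raised 2-fold and 49 of 50 raised 4-fold, with 7 false calls. The simulation gave every gene the same spread and changed only genes above a minimum mean level. Recovery of genes with few counts or a wider spread was therefore not measured. No 2 libraries of a group were alike within sampling noise (chi-square over its degrees of freedom was 5.46 or more). Replicate numbers come from the titles. Same-numbered libraries deviated together at each number in SPF against GF ileum of 10 weeks alone (correlations 0.25, 0.19 and 0.16; mean of unlike numbers -0.10).

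The 9 genes and the 20 lists of families, pathways and cell types (239 of 243 genes found) were chosen with earlier results of these data known. In every comparison all 9 genes were eligible for naming and, from each list, up to 4 genes with the smallest p, the defining markers of a cell type, and for likeness the 3 genes with the highest correlation. Gene positions are from GENCODE vM21 and promoter windows from RefSeq (GRCm38.p6). No protein sequence was used here. Ratios of pooled counts carry 95% intervals for counting error only, since the reads have no molecular identifiers.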

Additional observations from a re-analysis of the deposited data

Results flagged for a closer look

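Trim15 stood apart because its difference between COL and SPF mice had opposite directions in the 2 states of the colon, with no overlap between the groups in either. In untreated colon COL lay above SPF by 1.58 (log2, 4.98 to 11.8 against 2.23 to 4.18 CPM), and in DSS colon COL lay below SPF, at a log2 difference of -0.92 (22.4 to 26.4 against 40.2 to 49.3 CPM). The difference between these, tested as an interaction, was -2.50 ± 0.47 with an adjusted p of 0.371 by edgeR and 0.00451 by DESeq2. The 2 values do not share samples, and 3 libraries a group stand behind each. No other of the 9 genes showed opposite differences of this kind, and no outlier test was run on groups of 3. How many of all genes tested showed such differences was not counted.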

How the results depend on the processing

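Counts are of the genes called among the 9. DESeq2 in place of edgeR called 1 gene for COL against SPF in untreated colon, 1 for the difference between the DSS responses, 1 for COL against SPF ileum at 6 weeks, 3 for SPF against GF ileum at 10 weeks, 2 for age in SPF ileum, 1 for SPF against GF by age and 1 for COL against SPF by age, where edgeR called 0, 0, 0, 1, 0, 0 and 0. It also called 9 against 6 for DSS in COL colon and 4 against 3 for COL against GF ileum at 6 weeks, and the same number as edgeR in the other 10 comparisons. With only the groups compared, 1 gene (Clu, 2.76, adjusted p = 0.00127) was called for age in COL ileum. Leaving out each library in turn moved the count between 2 and 4 for SPF against GF ileum at 6 weeks, 1 and 3 for COL against GF at 6 weeks, 0 and 1 for COL against SPF at 6 weeks, 0 and 2 for SPF against GF at 10 weeks, 0 and 3 for age in SPF ileum and 0 and 1 for COL against SPF by age. SPF replicate 3 at 6 weeks alone gave the 1, 3 and 1 calls in the comparisons of COL with SPF at 6 weeks, of age in SPF ileum and of COL with SPF by age. In DSS against untreated colon these counts ran from 6 to 8 in SPF and from 5 to 7 in COL colon. Without SPF DSS replicate 1 or 2 or untreated SPF replicate 1 or 3 neither Sprr2a3 nor Anxa1 was called in SPF colon, and Anxa1 was also lost without SPF DSS replicate 3. Sprr2a3 in COL colon was lost without COL DSS replicate 3 or untreated COL replicate 1 (adjusted p up to 0.0695). The cause was not tested.

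Without replicate 1 of SPF ileum at 10 weeks and of GF ileum at both ages, whose follicle reads stood apart within their groups, 1 gene, Clu, was called for COL against SPF ileum at 10 weeks, for COL against GF by age and for COL against SPF by age. In the last of these Clu turned from -0.23 to 2.33 (adjusted p = 0.0204), in a fit with fewer samples. All COL libraries at 10 weeks, which held many follicle reads and high Clu, were kept, so that this choice fixes the direction for Clu and nothing is read from these calls. DESeq2's size factors within edgeR changed no call, and no filter on low counts took away 2 (Trim15 in COL against GF ileum at 6 weeks, adjusted p = 0.052, and Sprr1a in COL colon against ileum, 0.0619).

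With replicate numbers as a block, 9 genes were called in SPF colon (Clu at -0.94, adjusted p = 0.0433, as well) and 8 in COL colon (Clu at -1.35, adjusted p = 0.0203, and Sprr2h at 6.03, adjusted p = 0.00197, as well), and the block changed no other call among the 9, SPF against GF ileum at 10 weeks included. In colon the numbers carry no known pairing. Over all genes, DSS calls fell from 3097 to 1728 in SPF colon and rose from 918 to 1839 in COL colon with only the groups compared, and leaving out single libraries brought them down to 1915 in SPF and 376 in COL colon. Of 1859 alternative values for single genes in a comparison, 51 lost a call and 31 gained one with the sign unchanged. In addition 1 value, that of Clu for COL against SPF by age given above, gained a call with its sign reversed. Depth limits Wfdc18 and Sprr2h outside DSS colon, where most libraries held 0 to 5 reads of each.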
